A study of Mus musculus with 16 samples.

Results

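Single-cell RNA sequencing of whole testes at postnatal day 2 (P2) captured a small set of leukocytes marked by *S100a8* and *S100a9*, which encode the calcium-binding subunits of calprotectin. Cells were counted here as neutrophil-like when at least 20 unique molecular identifiers (UMIs, each standing for 1 captured mRNA) came from *S100a8* and *S100a9* together and at most 4 from the complement genes *C1qa*, *C1qb* and *C1qc*. Only barcodes with at most 10% of UMIs from mitochondrial genes were used, and no minimum was set on the number of genes. This rule selected 100 of 12037 cells. Macrophages were the 71 cells with at least 5 C1q UMIs, and the remaining 11866 cells are called other cells. Since measured levels of *S100a8*, *S100a9* and C1q genes chose the cells, values of these genes are descriptions only.

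The testes came from wild-type mice and from mice labelled as a *Ddx5* conditional knockout, both at P2. Per the study's methods, the knockout combined floxed *Ddx5* alleles with Cre recombinase under the germ cell promoter *Mvh*, and homozygotes were bred from *Ddx5*+/- males and *Ddx5* flox/flox females. Leukocytes were therefore not the cells in which the transgene was meant to act. The labels number 8 libraries per genotype, but barcodes carry no library number, so each genotype was 1 library and no test between genotypes was possible. The counts hold only 2 barcode suffixes and do not show whether the 8 entries are separate libraries. The lanes given for these entries differ in part between the genotypes. The genotype of the 2 barcode suffixes was taken from the cell numbers the study states, and Cre was counted in 20 UMIs of the library labelled *Ddx5* knockout (called the KO-labelled library here) and in 0 UMIs of the wild-type library. Germ cells, taken as other cells with at least 5 UMIs of *Ddx4* and *Dazl*, numbered 129 in wild type and 13 in the KO-labelled library, and the latter held all 20 Cre UMIs. *Ddx5* itself was not lower in them: it stood at 1159 counts per 1000000 UMIs (CPM) in germ cells of wild type (1127 to 1192) and at 1731 CPM in those of the KO-labelled library (1614 to 1855), a ratio of 1.49 (1.38 to 1.61). By single-cell qRT-PCR of sorted *Oct4*-GFP germ cells at P2, the study reported a strong decrease of *Ddx5* mRNA in the knockout. Where the deleted part lies relative to the 3′ end that was sequenced is not given in the sources used here, so *Ddx5* UMIs do not check the deletion. This check was added after the data were seen, and each direction between libraries below rests on the assignment of genotype to barcodes. The number of mice behind each library is not given in the sources used here. All intervals are 95% intervals for counting error only, and they hold neither animal-to-animal nor library-to-library spread.

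Neutrophils are short-lived phagocytes that leave the bone marrow, circulate in blood and enter tissue along chemokine gradients. They fill their granules in sequence as they mature: primary granules hold myeloperoxidase and serine proteases, secondary granules hold lactoferrin and cathelicidin, and tertiary granules hold gelatinase. Granule transcripts are made in the marrow and decline before release, whereas receptors for G-CSF and CXC chemokines mark mature cells, and *Il1b* and chemokine transcripts mark activated ones. The testis has its own resident macrophages, in which complement C1q transcripts are abundant.

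The secondary granule genes *Ngp* (neutrophilic granule protein), *Camp* (cathelicidin) and *Ltf* (lactoferrin) divided the neutrophil-like cells among themselves in the values given later, and they lie on 1 chromosome. In GRCm38, *Camp* is at chr9:109847377-109849456, *Ngp* at chr9:110419808-110423012 and *Ltf* at chr9:111019292-111042766, a span of 1195 kb from the first to the last. The 250 bases before the RefSeq start of each gene are shown because these 3 genes moved together across cells. Capitals mark TTNNGNAA, a form of the binding motif of C/EBP factors, searched on both strands. Promoters are read 5′ to 3′ on the strand of the gene, at chr9:110419558-110419807 (plus) for *Ngp*, chr9:109849457-109849706 (minus) for *Camp* and chr9:111019042-111019291 (plus) for *Ltf*.
Ngp: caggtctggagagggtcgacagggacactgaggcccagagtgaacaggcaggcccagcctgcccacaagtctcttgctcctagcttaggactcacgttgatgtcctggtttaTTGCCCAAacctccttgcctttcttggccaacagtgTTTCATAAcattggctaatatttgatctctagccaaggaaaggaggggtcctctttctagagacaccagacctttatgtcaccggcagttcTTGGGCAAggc
Camp: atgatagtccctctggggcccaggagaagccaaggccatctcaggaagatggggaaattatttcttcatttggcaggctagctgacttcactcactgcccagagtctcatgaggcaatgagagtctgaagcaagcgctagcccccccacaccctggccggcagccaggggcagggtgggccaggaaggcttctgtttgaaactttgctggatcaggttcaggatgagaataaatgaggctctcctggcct
Ltf: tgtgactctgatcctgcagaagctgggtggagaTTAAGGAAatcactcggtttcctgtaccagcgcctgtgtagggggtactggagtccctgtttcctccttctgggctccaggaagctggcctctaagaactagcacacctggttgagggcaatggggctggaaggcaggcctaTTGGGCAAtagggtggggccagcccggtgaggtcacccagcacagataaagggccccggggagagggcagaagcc
*Ngp* held 3 such matches, *Ltf* 2 and *Camp* 0. The 8 letters occurred in 12104 of 32851 mouse promoters of this length (36.8%), in 10 of 14 promoters of the secondary granule list, in 10 of 15 of the neutrophil defining list, in 11 of 18 of the cytokine and chemokine list and in 5 of 18 of a respiratory chain list. A match is a description of letters and not a binding site.

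Within the neutrophil-like cells the sum of *S100a8* and *S100a9* ranged from 21 to 2561 UMIs, with a median of 308. These 2 genes took from 0.128% to 31.5% of all UMIs of a cell, with a median of 12.4%. *S100a8* lies at chr3:90669071-90670034 and *S100a9* at chr3:90692630-90695721, within 26.7 kb of each other. The limit of 20 fell into a gap in the data. The cells closest above it had 21, 23, 24, 24 and 25 UMIs, and those closest below it had 14, 12, 11, 11 and 6. No cell met the S100 limit and held 5 or more C1q UMIs, and 99 of the 100 cells had no C1q UMI at all. The highest S100 sum of any macrophage was 4 UMIs. Among other cells 276 of 11866 (2.33%, interval 2.06 to 2.61) had an S100 UMI, and 255 of these had exactly 1. At a median depth above that of the neutrophil-like cells, this is the level outside the class beside which shares of cells below are set. Whether these UMIs came from free RNA or from cells just under the limit was not tested.

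**Figure D1:**
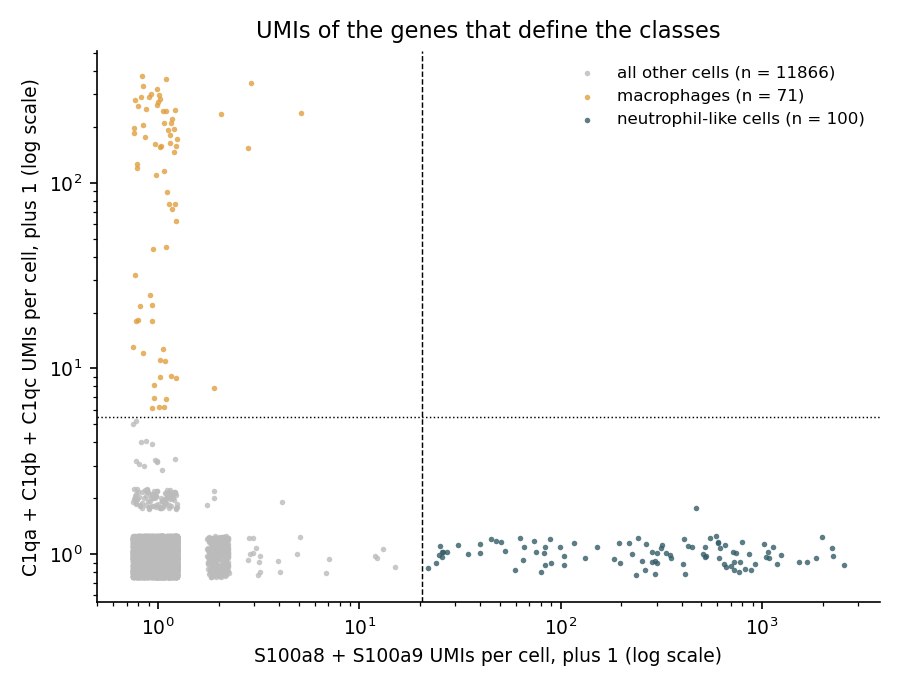
Each point is 1 cell, with the summed UMIs of *S100a8* and *S100a9* plus 1 on the x axis and those of *C1qa*, *C1qb* and *C1qc* plus 1 on the y axis, both on log scales. The 100 neutrophil-like cells lie to the right with at most 1 C1q UMI, and no cell lies in the upper right.

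The neutrophil-like cells carried little RNA. Their UMIs ranged from 1109 to 58942 with a median of 2645, against medians of 16064 in macrophages and 11055 in other cells. A median of 1043.5 genes was detected per cell, against 4054 and 3660. Of the 100 cells 58 reached 1000 genes and 19 reached 2000 genes, the minimum of the study's own filter, whereas 54 of 71 macrophages and 11206 of 11866 other cells (94.4%) reached 2000. A 2000-gene filter thus leaves out 81 of the 100 cells. The median mitochondrial share was 0.722% of UMIs, and no neutrophil-like cell was above 4.07%, against medians of 1.99% in macrophages and 2.17% in other cells. When each cell was thinned to 1000 UMIs, medians of 586 genes in wild type and 532 in the KO-labelled library remained, against 608 in macrophages of either library. Depth was very unequal within the class. The 19 cells of 2000 genes or more held 54.9% of its UMIs and the 2 deepest cells 18.2%, so values per cell and values over the 81 shallower cells are given beside sums.

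**Figure D2:**
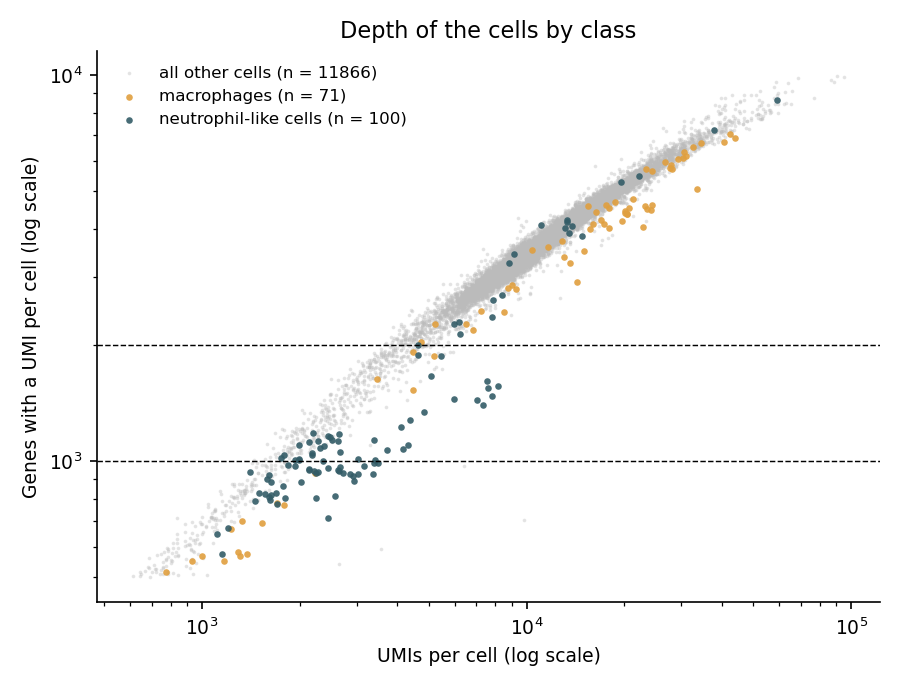
Genes with a UMI (y axis) are plotted against UMIs per cell (x axis), both on log scales, with 1 point per cell and 1 colour per class. Most neutrophil-like cells lie at the lower left, around the median of 2645 UMIs and 1043.5 genes, and 19 lie above 2000 genes.

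Markers that the rule did not use were then compared with the label. *Tyrobp*, the DAP12 adaptor of activating receptors, was found in 99 of 100 cells and *Fcer1g*, the Fc receptor gamma chain, in 97. *Tyrobp* stood at 4336 CPM in wild type and 3512 in the KO-labelled library, against 2739 and 2682 in macrophages and 5.52 and 13.6 in other cells. *Fcer1g* stood at 1210 and 1547 CPM, against 2537 and 2273 in macrophages. Both adaptors thus mark myeloid cells in these testes and did not set neutrophil-like cells apart from macrophages. *Csf3r*, the G-CSF receptor, had a UMI in 81 of 100 cells, *Retnlg* (resistin-like gamma) in 59, *Cxcr2*, the receptor for CXC chemokines, in 57, and *Il1b* in 61. After thinning to 1000 UMIs, *Csf3r* was found in 15 of 27 and 31 of 73 neutrophil-like cells and in at most 0.0384% of other cells of either library. *Ly6g*, the antigen by which mouse neutrophils are usually sorted, had a UMI in only 13 cells.

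Not every cell under the rule matched the label. In 9 cells, 1 of wild type and 8 of the KO-labelled library, 6 to 8 of 10 monocyte markers had a UMI, against 0 to 3 in the other 91. *Ccr2*, the receptor that draws monocytes out of marrow, and *Ly86* were found in all 9 and in 0 of 91. *Ms4a4c* and *Ms4a6c* were found in 8 of 9 and in 0 of 91, and *S100a4* in 9 of 9 and in 0 of 91. *Ly6c2* ranged from 7 to 69 UMIs in the 9 cells, with a median of 11, and had a UMI in 26 of 91 others. *Retnlg*, *Mmp9*, *Ngp*, *Camp*, *Ltf* and *Ly6g*, 6 of 12 neutrophil markers, had no UMI in any of the 9. The other 6 markers were found in some of them: *Mmp8* (neutrophil collagenase) in 7 of 9, against 52 of the other 91, *Csf3r* in 6, against 75, *Cxcr2* and *Lcn2* in 2 each, and *Il1b* and *G0s2* in 1 each. These cells had 21 to 65 UMIs of *S100a8* and *S100a9*, the low end of the range, and nearly all were *S100a8*: it stood at 20 to 57 UMIs, whereas *S100a9* stood at 0 to 8 and was found in 3 of the 9. Of the 9 cells 8 passed 2000 genes. Their data go against the label, and they are called here the 9 cells with monocyte markers. Without them 91 cells remained, 26 and 65 by library.

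**Figure D3:**
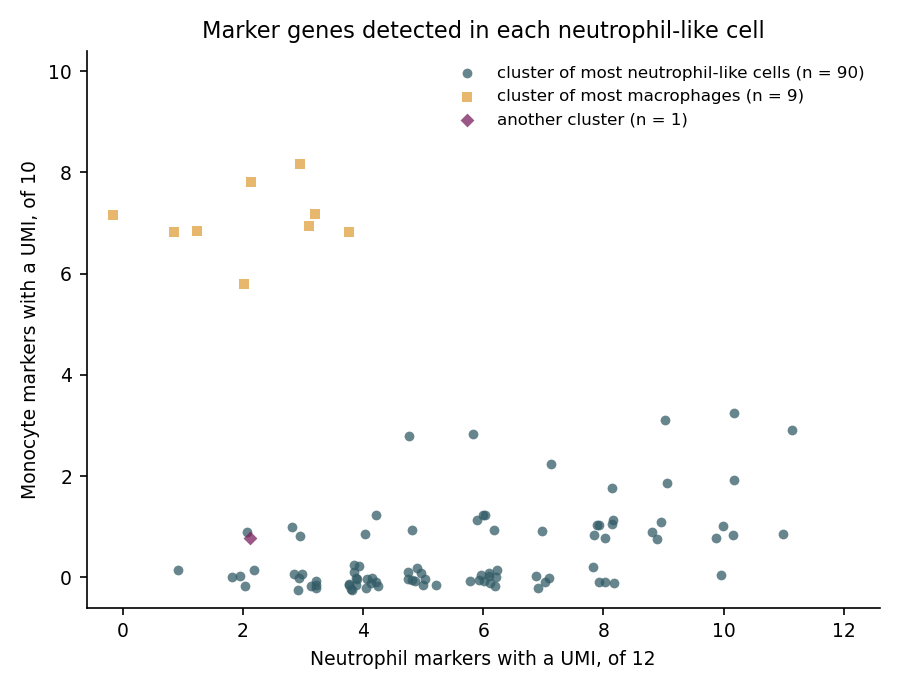
Each point is 1 neutrophil-like cell, with the number of neutrophil markers outside the rule (of 12) on the x axis and the number of monocyte markers (of 10) on the y axis, shifted slightly so that cells do not hide each other. The 9 cells with 6 to 8 monocyte markers lie at the top and have 0 to 4 neutrophil markers, and the other 91 cells have 0 to 3 monocyte markers and 1 to 11 neutrophil markers.

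Clustering of all cells without *S100a8*, *S100a9* and the C1q genes placed 90 of the 100 cells in 1 cluster of 106 cells that held no macrophage. The 9 cells with monocyte markers fell in another cluster of 110 cells, of which 67 were macrophages, and 1 cell fell elsewhere. The cluster of 106 also held 16 cells under the S100 limit, 15 of them from the KO-labelled library, with 0 to 11 S100 UMIs. Another 11 neutrophil-like cells with 2000 genes or more and few monocyte markers carried RNA of testis cells. Their UMIs of 33 Sertoli, Leydig, myoid and stromal markers were 38.6 to 191 per 10000 UMIs with a median of 114, against medians of 155 in other cells and 5.73 in the 81 shallower cells. Scrublet called 6 of these 11, and 8 of all 100 cells, doublets. The part of mixed droplets in the values of these deep cells was not tested.

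Against macrophages, which share the myeloid adaptors, the neutrophil-like cells were higher in secondary granule genes, stefins and receptors of mature neutrophils, and lower in macrophage genes. UMIs were summed per class and library, and a gene was counted as higher when its ratio was at least 4 in both libraries, with a denominator under 3 UMIs raised to 3. Of 8095 genes with at least 20 UMIs, 197 (2.43%) were higher and 128 (1.58%) lower by this measure. Against all other cells 701 of 19895 genes (3.52%) were higher and 20 (0.101%) lower. For a lower call, a neutrophil-like sum under 3 UMIs was raised to 3, which is 26.9 CPM in wild type and 7.14 CPM in the KO-labelled library. Genes weakly expressed in other cells could therefore not be called lower, and the shares higher and lower are not comparable. As the class was picked by values of the same cells, these counts carry no test.

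Secondary granule genes were higher than in macrophages for 13 of 15 members tested, with none lower, and their median log2 ratio was 5.06 against -0.070 over all genes, with 10 CPM added to both sides. *Ngp* stood at 2482 and 3057 CPM in the wild-type and the KO-labelled cells and had no UMI in any macrophage, which makes it at least 493-fold and 543-fold higher. *Camp* stood at 1586 and 2402 CPM, and *Lcn2*, the iron-siderophore-binding lipocalin 2, at 1299 and 1988, each with no UMI in macrophages. The wild-type values rested on 1 cell of 3840 genes, which held 273 of the 277 *Ngp*, all 177 *Camp* and 130 of the 145 *Lcn2* UMIs of that library. This cell is 1 of the 11 deep cells with RNA of testis cells, at 43.1 marker UMIs per 10000, and was not called a doublet. Without it wild type stood at 41.3 CPM for *Ngp*, at least 8.21-fold higher, at 0 for *Camp* and at 155 CPM for *Lcn2*, and 9 of 15 members of the list were higher instead of 13. In cells under 2000 genes alone 9 of 15 were also higher. *Hp* (haptoglobin) and *Pglyrp1* (a peptidoglycan-binding protein) had a UMI in most cells: *Pglyrp1* stood at 1317 and 1452 CPM against 0 and 1.88 in macrophages. The exceptions were *Lyz2* (lysozyme), which is also a macrophage gene and stood at 3369 and 9473 CPM against 3375 and 5939, and *Cybb*, the oxidase heavy chain, with 98.6 and 276 CPM against 159 and 120. Both were high in the 9 cells with monocyte markers, and without these cells *Lyz2* stood at 2448 and 5092 CPM and *Cybb* at 75.9 and 100.5 CPM, all under the macrophage values.

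Of 12 primary granule genes 6 had 0 UMIs in all 100 cells, namely *Mpo*, *Elane*, *Ctsg*, *Ms4a3*, *Bpi* and *Cst7*, and *Prtn3* had a UMI in 4. At least 1 gene of the list had a UMI in 87 cells. These were the 87 cells with a UMI of the lysosomal protease *Ctsd*, which this list also holds. *Ctsd* was lower than in macrophages, at 448 and 440 CPM against 4654 and 5684. Of the 4 genes of the list tested, this was the 1 lower, and the 1 higher was *Serpinb1a*, an inhibitor of neutrophil serine proteases, at 108 and 92.8 CPM against 10.1 and 16.9. Without the wild-type cell with the most granule UMIs *Serpinb1a* stood at 10.3 CPM in wild type and was no longer called. In cells under 2000 genes 0 of the 4 were higher and 2 lower. Tertiary granule and secretory vesicle genes were higher for 5 of 9 tested and lower for 1, and in cells under 2000 genes higher for 8 and lower for 0. *Retnlg* stood at 2114 and 7349 CPM and *Mmp9* (gelatinase B) at 278 and 569 CPM, both with no UMI in macrophages, and *Mcemp1* at 260 and 519 CPM against 6.71 and 1.88. The exception in the other direction was the metal transporter *Slc11a1*, at 35.8 and 35.7 CPM against 258 and 362.

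Receptors of mature neutrophils were higher for 14 of 22 tested and lower for 0. *Csf3r* stood at 493 and 331 CPM against 23.5 and 20.6, ratios of 21.0 (11.5 to 40.8) and 16.04 (8.69 to 32.9). *Cxcr2* stood at 152 and 181 CPM and had no UMI in macrophages, at least 30.3-fold and 32.2-fold higher. The decoy receptor *Il1r2* (484 and 140 CPM), the amplifier *Trem1* (323 and 140 CPM) and its paralog *Trem3* (152 and 171 CPM) each had at most 5.03 CPM in macrophages. By contrast, *Tlr2* (108 and 69.0 CPM against 88.9 and 60.0) and *Tlr4* (8.96 and 4.76 CPM against 26.9 and 26.3) did not reach 4-fold in both libraries.

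Lists of machinery that neutrophils share with macrophages held 0 to 2 genes past the fold over all 100 cells, beside shares of 2.43% higher and 1.58% lower over all genes. In cells under 2000 genes 4 of these 5 lists held more, and the number higher over all genes was 272 instead of 197. Of 16 Fc receptor and ITAM signalling genes 1 was higher, the kinase *Fgr*, and 1 lower, *Fcgr1*, and the median log2 ratio was 0.065. None of 6 NADPH oxidase genes passed 4-fold in both libraries, but all 6 were higher than in other cells. Of these 6, *Ncf1* stood at 179 and 302 CPM against 101 in each macrophage library, and *Rac2* at 833 and 826 CPM against 315 and 214, ratios of 2.64 (2.04 to 3.40) and 3.86 (3.12 to 4.82). Of 20 genes for actin and adhesion 1 was higher, and of 25 respiratory chain genes 0 passed in either direction. In glycolysis 2 of 18 passed, the glucose transporter *Slc2a3*, at 98.6 and 169 CPM against 0 and 5.63, and the lactate transporter *Slc16a3*, at 89.6 and 78.6 CPM against 6.71 and 11.3. In cells under 2000 genes alone, 8 of 20 actin and adhesion genes were higher than in macrophages, 4 of 16 glycolysis genes, 3 of 6 oxidase genes, 3 of 16 Fc receptor and ITAM genes and 0 of 25 respiratory chain genes, with none lower in any of these lists.

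Cytokine and chemokine genes were higher for 6 of 11 tested. *Il1b* stood at 1254 and 398 CPM against 1.68 and 3.75, and *Cxcl2*, a ligand of CXCR2, at 824 and 190 CPM against 53.7 and 0. *Ccl6* was also higher, at 448 and 490 CPM against 26.9 and 48.8. *Ccl3*, which macrophages also held, stood at 367 and 38.1 CPM against 106 and 71.3. *Tnf* stood at 44.8 and 2.38 CPM against 31.9 and 18.8, and *Il6* and *Il10* had no UMI in the class.

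Outside *S100a8* and *S100a9*, the 6 genes whose ratio interval lay farthest above the macrophage level were stefins, cystatin-family inhibitors of cysteine proteases that are encoded in a cluster of 8 genes at chr16:36156811-36455392 (299 kb). All 8 of them were higher than in macrophages and than in other cells. *Stfa1* stood at 15563 and 21807 CPM, *Cstdc5* at 9345 and 17783 CPM and *Cstdc4* at 6997 and 10518 CPM, and 7 of the 8 had no UMI in any macrophage. *Stfa1* had 1 UMI there. Every one of the 91 cells with few monocyte markers had a *Stfa1* UMI (4 to 422, median 101), against 5 of the 9 cells with monocyte markers (0 to 18, median 2). The cluster is made of close copies, and reads may have been counted for a neighbour. In the last 300 bases of transcripts, where this kit reads, 41.7% of 90-base words of *Cstdc5*, 21.3% of *Csta2* and 18.5% of *Stfa1* also occurred in another gene of the interval, against 0% for *Csta3*, *Stfa3* and *Cstdc4*. Other protease inhibitors rose with them, namely *Slpi*, the leukocyte protease inhibitor, at 1129 and 1121 CPM, and *Wfdc21*, at 977 and 845 CPM, both with 0 UMIs in macrophages. Of other S100 genes *S100a6* stood at 2876 and 3330 CPM against 156 and 189, and *S100a11* at 2706 and 3269 CPM against 158 and 227, whereas *S100a10*, at 412 and 545 CPM, was near the macrophage level of 378 and 428.

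Of 18 myeloid transcription factors tested 4 were higher and 3 lower, and in cells under 2000 genes 6 were higher and 1 lower. *Cebpe*, which drives secondary granule genes during maturation, stood at 53.8 and 97.6 CPM and *Nfe2* at 53.8 and 54.8 CPM, both with no UMI in macrophages. *Mxd1*, a MYC antagonist of late granulocytes, stood at 358 and 298 CPM against 15.1 and 7.50, and *Klf2* at 296 and 238 CPM against 47.0 and 41.3. *Cebpb* stood at 1882 and 1102 CPM against 465 and 356, ratios of 4.05 (3.37 to 4.86) and 3.09 (2.61 to 3.68), which is 4-fold in wild type alone. *Spi1* (PU.1), common to both lineages, differed little, at 529 and 493 CPM against 339 and 300. The lower factors included the macrophage regulator *Maf* and also *Irf8*, which had no UMI in wild type and whose UMIs came from 7 cells, 6 of them with monocyte markers. *Gfi1*, a repressor of early granulocytes, had 0 UMIs.

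On the macrophage side, 15 of 19 macrophage list genes outside C1q were lower, and 11 of 25 genes of the whole list had no UMI in any neutrophil-like cell, among them *C1qb* and *C1qc*, which the rule used, and *Mrc1*, *Pf4*, *Fcrls* and *Ms4a7*, which it did not. *Hmox1*, the heme-degrading oxygenase, stood at 44.8 and 35.7 CPM against 6850 and 8692, and the protease *Lgmn* at 35.8 and 33.3 CPM against 2104 and 1860. *Apoe* stood at 842 and 1436 CPM against 30141 and 30010, ratios of 0.0279 (0.0226 to 0.0342) and 0.0478 (0.0440 to 0.0519). Of 10 monocyte list genes tested 1 was higher and 2 lower, and of 7 dendritic cell and MHC class II genes none passed. Of cell types that are not myeloid, Sertoli markers had a UMI in 53 cells, stromal markers in 45, lymphocyte markers in 29, peritubular myoid markers in 21, Leydig and endothelial markers in 16 each, erythroid markers in 7 and germ cell markers in 1. *Cd3d*, a subunit of the T cell receptor complex, stood at 53.8 and 64.3 CPM with 0 UMIs in macrophages and was called higher. *Cd3g*, another subunit, was found in 1 and 3 UMIs, and *Cd3e* and *Trac* in 0.

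Of 10 interferon response genes 3 were higher than in macrophages: *Ifitm6*, at 529 and 538 CPM with no UMI in macrophages, *Ifitm1*, at 690 and 210 CPM against 10.1 and 26.3, and *Slfn1*, at 152 and 188 CPM against 1.68 and 0. *Bst2* (tetherin) was lower, at 80.6 and 92.8 CPM against 571 and 488, and *Isg15* had a UMI in 1 cell. Of 14 apoptosis and survival genes 1 was higher, *Pmaip1* (NOXA), from 5 and 10 UMIs, at 44.8 and 23.8 CPM against 10.1 and 1.88. Without the cells with monocyte markers it stood at 47.4 and 20.1 CPM and was no longer called. The survival factor *Mcl1* stood at 1174 and 805 CPM against 228 and 240, ratios of 5.14 (4.01 to 6.59) and 3.35 (2.73 to 4.14). *Hdc*, the histamine-forming enzyme, was the 1 gene tested of a mast cell and basophil list and stood at 251 and 121 CPM against 1.68 and 3.75.

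Few genes were lower than in other cells when all neutrophil-like cells were summed, and more were lower without the deep cells. The count of 20 became 163 when the 81 cells under 2000 genes alone were used. *Col3a1*, a stromal collagen, stood at 215 and 412 CPM in sums over all neutrophil-like cells against 1290 and 1450 in other cells, but at 87.2 and 46.4 CPM in cells under 2000 genes. *Dlk1*, an interstitial marker, stood at 179 and 321 CPM against 1055 and 960, and at 21.8 and 51.6 CPM in cells under 2000 genes. The summed stromal list likewise stood at 1236 and 2238 CPM over all and at 261 and 227 CPM in cells under 2000 genes, against 6223 and 6800 CPM in other cells.

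Of 28 cell cycle genes 1 was higher than in macrophages and 0 were higher than in other cells. *Mki67* had a UMI in 8 cells and *Top2a* in 9. *Hmgb2*, a chromatin protein found in 95 cells, was the member with the most cells.

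Cells in the class differed among themselves along granule and cytokine genes. At least 10 UMIs of *Ngp*, *Camp* and *Ltf* together were found in 14 cells, and at least 1 in 25. The other 75 cells had none. In the 14 cells *Ngp* ranged from 6 to 332 UMIs with a median of 64.5, *Camp* had a median of 65.5, *Ltf* 39.5, *Lcn2* 62.5 and *Mmp8* 12.5. All 14 had *Retnlg*, at 2 to 264 UMIs with a median of 127. *S100a8* and *S100a9* took a median of 24.1% of their UMIs. None of the 14 had an *Il1b* UMI.

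At least 1 UMI of *Il1b*, *Cxcl2*, *Ccl3* and *Ccl4* was found in 68 cells. Of these 7 also had an *Ngp*, *Camp* or *Ltf* UMI, 61 had none, 18 had granule UMIs without cytokine UMIs, and 14 had neither, of which 8 were cells with monocyte markers. In the 61 cells with cytokine UMIs alone *Il1b* was found in 57 (0 to 24 UMIs, median 4), the immediate early gene *Fos* in 44, *Il1r2* in 39, *Trem1* in 38 and *Cxcl2* in 27. Only 1 cell combined a cytokine UMI with 10 or more granule UMIs. The cell with the most UMIs of all, 58942, was also among the 7 and carried 124 somatic marker UMIs per 10000.

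**Figure D4:**
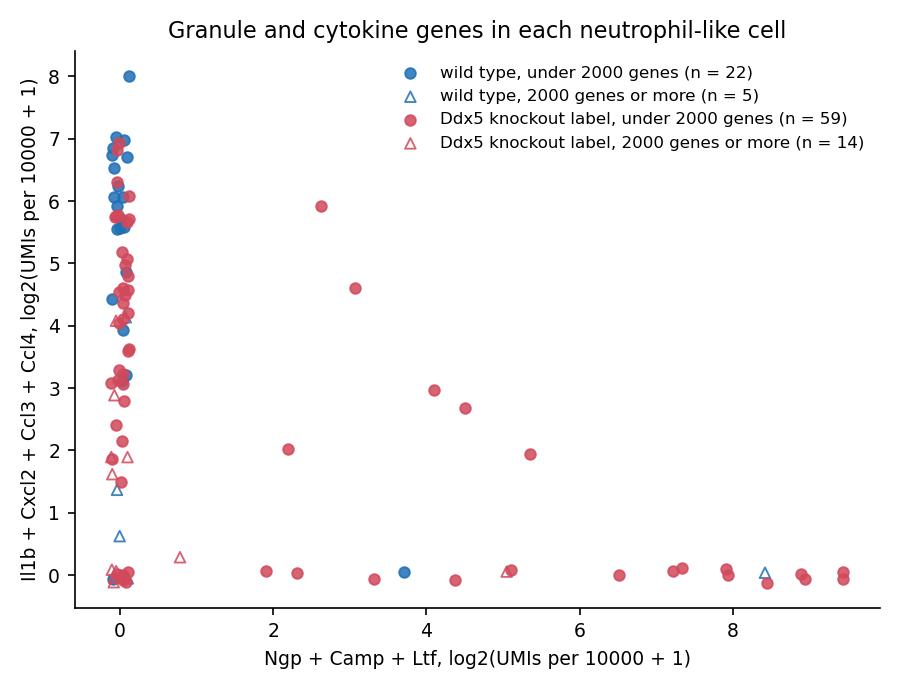
For each neutrophil-like cell the x axis gives *Ngp*, *Camp* and *Ltf* and the y axis *Il1b*, *Cxcl2*, *Ccl3* and *Ccl4*, both as log2 of UMIs per 10000 plus 1, with the library as colour. Cells line up along both axes: 18 have granule UMIs only, 61 cytokine UMIs only and 7 both.

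Across cells, Spearman correlations of UMIs per cell total were 0.83 between *Ngp* and *Camp*, 0.81 between *Ngp* and *Ltf* and 0.86 between *Camp* and *Ltf* over 100 cells (0.81, 0.79 and 0.84 over the 81 cells under 2000 genes). *S100a8* and *Stfa1* had 0.90 (0.83), and *Retnlg* and *Mmp8* 0.68 (0.73). *Retnlg* and *Il1b* had -0.51 (-0.71), and the granule sum and the cytokine sum -0.51 (-0.60), or -0.40 (-0.48) after thinning to 1000 UMIs. The cells come from 2 libraries, share each cell's total as denominator and differ in depth, so these are descriptions without a test.

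Neutrophil-like cells were more frequent in the KO-labelled library. They were 27 of 6683 cells (0.404%, interval 0.266 to 0.587) in wild type and 73 of 5354 cells (1.36%, 1.07 to 1.71) in the other library, a ratio of 3.37 (2.14 to 5.46). Macrophages were 0.628% and 0.542%, a ratio of 0.862 (0.518 to 1.42). The ratio of neutrophil-like cells was 3.35 (2.02 to 5.74) for cells under 2000 genes, 3.58 (1.22 to 12.7) among cells of 2000 genes or more, with 5 and 14 cells, of which 8 had monocyte markers, and 3.12 (1.95 to 5.12) without the cells with monocyte markers. Without the cells with monocyte markers, 4 and 7 cells of 2000 genes or more remained, with a ratio of 2.24 (0.569 to 10.42) whose interval includes 1. Among cells of at least 1000 genes the ratio was 5.39, from 11 and 47 cells. UMIs of these genes in other cells moved the same way: *S100a8* stood at 0.674 CPM there in wild type and 2.22 CPM in the KO-labelled library, and *Lyz2* at 9.81 and 48.5. Other cells include 34 cells of the cluster of most macrophages and 16 of the cluster of most neutrophil-like cells. The part of these cells in the values was not tested. Erythroid genes, which come with blood, summed to 147 CPM in other cells of wild type and to 947 CPM in those of the KO-labelled library, from a list of which 11 genes are in the table. Without the cell with the highest sum in each library these were 99.7 and 817 CPM. In macrophages they were 2656 and 18.8 CPM, or 18.9 and 15.5 CPM without the highest cell, which in wild type held 1572 of 1583 UMIs. In neutrophil-like cells they were 17.9 and 16.7 CPM, from 2 and 7 UMIs. The 12 genes of the lymphocyte list summed to 11.6 and 27.7 CPM in other cells, with *Cd79a* and *Cd79b*, of the B cell receptor, at 1.23 and 9.31 CPM and at 0.530 and 7.42 CPM. The 12 monocyte genes summed to 456 and 472 CPM there, with *Ccr2* at 0.662 and 2.88 CPM. The part of blood in the share of neutrophil-like cells was not tested. With 1 library per genotype, genotype and library cannot be told apart.

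Transcripts of *Ngp*, *Camp*, *Ltf* and *Retnlg* were found in a larger share of cells of the KO-labelled library. Those of *Il1b* and *Cxcl2* were found in a larger share of wild-type cells. The comparison used cells under 2000 genes, 22 of wild type and 59 of the KO-labelled library, with median UMIs of 1914 and 2631. *Ngp* had a UMI in 1 (4.55%) and 19 (32.2%), *Camp* in 0 (interval 0 to 15.4%) and 15 (25.4%), and *Ltf* in 0 and 14 (23.7%). *Retnlg* had one in 6 (27.3%, 10.7 to 50.2) and 45 (76.3%, 63.4 to 86.4). *Il1b* went the other way, with 19 (86.4%, 65.1 to 97.1) and 33 (55.9%, 42.4 to 68.8), as did *Cxcl2*, with 12 (54.5%, 32.2 to 75.6) and 18 (30.5%, 19.2 to 43.9). Of these genes only *Retnlg* had intervals that did not overlap between the libraries. After thinning every neutrophil-like cell to 1000 UMIs, *Retnlg* was found in 22.2% of wild-type cells and 60.3% of the others, and *Il1b* in 63.0% and 39.7%. Thinned cells with an *Ngp*, *Camp* or *Ltf* UMI numbered 2 of 27 (7.41%, 0.910 to 24.3) and 17 of 73 (23.3%, 14.2 to 34.6), and these intervals overlap. At that depth *Retnlg*, *Il1b* and *Ngp* were found in at most 0.0384% of other cells in either library.

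**Figure D5:**
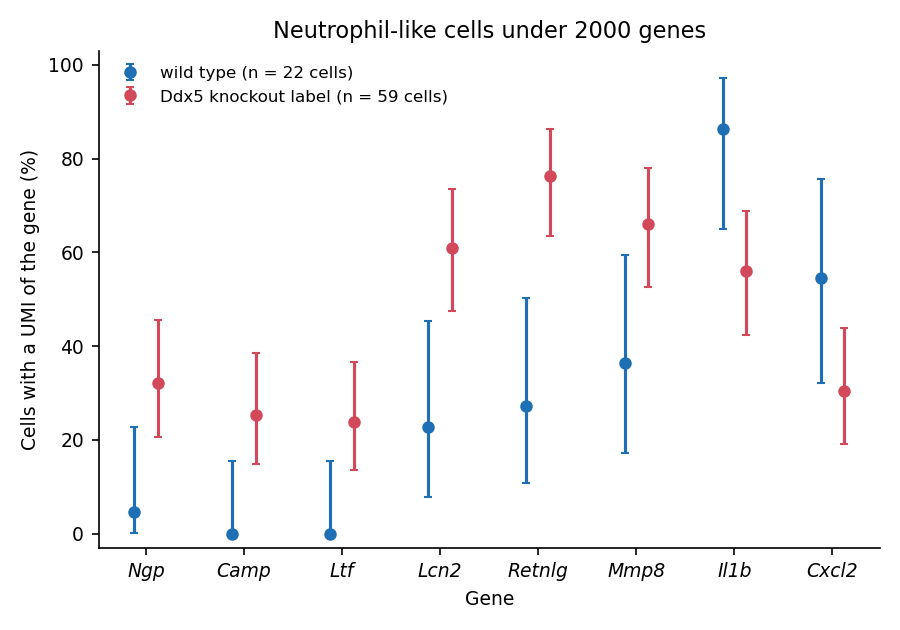
The percentage of neutrophil-like cells under 2000 genes that had a UMI of each gene (x axis) is plotted for 22 wild-type cells and 59 cells of the KO-labelled library, with exact Clopper-Pearson 95% intervals as bars. *Ngp*, *Camp*, *Ltf* and *Retnlg* had a UMI in a larger share of cells in the KO-labelled library, and *Il1b* and *Cxcl2* in a larger share in wild type.

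In sums over all 100 cells 244 of 4026 genes (6.06%) were at least 2-fold higher and 265 (6.58%) at least 2-fold lower in the KO-labelled library. In the 81 cells under 2000 genes 80 of 1435 genes (5.57%) were higher and 227 (15.8%) lower, with a median log2 ratio of -0.28 over all genes. This shift depended on the scale. When CPM were taken outside *S100a8*, *S100a9* and the stefin A genes, the counts were 163 higher and 118 lower with a median of -0.029. Counts of the gene groups are given next on both scales.

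Secondary granule genes were at least 2-fold higher for 12 of 15 in cells under 2000 genes, for 13 outside the S100 and stefin genes, and for 8 over all 100 cells, with none lower. *Ngp* stood at 87.2 CPM (4 UMIs in 1 cell) in wild type and at 6275 CPM in the KO-labelled library. *Camp* had no UMI in wild type and 4980 CPM, at least 76.2-fold higher, and *Ltf* no UMI and 2307 CPM, at least 35.3-fold higher. These sums rested on few cells. Of cells under 2000 genes, 12 of 59 in the KO-labelled library had 10 or more UMIs of these 3 genes, against 0 of 22 in wild type. The 14 such cells of any depth had a median of 7176.5 UMIs, whereas the deepest wild-type cell under 2000 genes had 4618. *Lcn2* stood at 240 and 3844 CPM, a ratio of 16.04 (8.91 to 32.3), *Lyz2* at 2658 and 9252 CPM, a ratio of 3.48 (2.90 to 4.22), and *Retnlg*, of tertiary granules, at 3508 and 14774 CPM, a ratio of 4.21 (3.59 to 4.97). The tertiary granule and secretory vesicle list went both ways, with 2 of 8 genes higher and 2 lower in cells under 2000 genes. Outside the S100 and stefin genes 4 were higher and 1 lower, and over all 100 cells 3 were higher and 1 lower. Over all 100 cells the ratios of *Ngp* and *Camp* were only 1.23 and 1.51, because 1 wild-type cell of 3840 genes held 273 of the 277 *Ngp* UMIs of wild type and all 177 *Camp* and all 59 *Ltf* UMIs. In the 5 and 14 cells of 2000 genes or more, which include it, the direction was the opposite, with log2 ratios (10 CPM added) of -3.75 for *Ngp*, -3.72 for *Camp*, -3.49 for *Ltf* and -2.33 for *Lcn2*. *Hp* stood at 1765 and 1914 CPM, a ratio of 1.08 (0.851 to 1.40).

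Cytokine and chemokine genes were at least 2-fold lower for 5 of 7 tested on each scale and over all 100 cells. *Il1b* stood at 2811 and 707 CPM, a ratio of 0.252 (0.196 to 0.322), *Cxcl2* at 2005 and 408 CPM, a ratio of 0.203 (0.149 to 0.278), and *Ccl3* at 741 and 77.4 CPM, a ratio of 0.104 (0.0529 to 0.197). NF-kB and immediate early genes were lower for 11 of 13, or for 7 of 13 outside the S100 and stefin genes, and over all 100 cells for 5 of 15, with 1 higher. *Fos* stood at 1700 and 356 CPM, a ratio of 0.209 (0.149 to 0.293). Outside the class *Fos* differed between the libraries too, and stood at 435 and 203 CPM in macrophages and at 93.5 and 45.7 CPM in other cells. The part of handling of the libraries in these values was not tested.

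Among receptors of mature neutrophils 5 of 18 were lower and 1, *Ly6g*, higher, beside 15.8% and 5.57% of all genes. Outside the S100 and stefin genes 2 of 18 were lower and 1 higher, and over all 100 cells 4 of 20 were lower and 1 higher. *Il1r2* stood at 915 and 279 CPM and *Trem1* at 697 and 253 CPM, whereas *Cxcr2*, at 240 and 315 CPM, and *Csf3r*, at 1002 and 547 CPM, stayed within 2-fold. Several shared components had ratios near 1: *S100a6* stood at 5469 and 5454 CPM, *Fcer1g* at 2070 and 2069 CPM and *Wfdc21* at 1525 and 1626 CPM.

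The targeted gene was detected in both libraries. *Ddx5* stood at 860 CPM in wild type and 750 CPM in the KO-labelled library over all neutrophil-like cells, and the ratio in cells under 2000 genes was 0.849 (0.613 to 1.19). Neither Cre nor the GFP transgene had a UMI in any of the 100 cells.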

How the data were processed

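Testis cells of P2 mice were captured with a Chromium 3′ v3 kit. Per the submitters' processing notes Cell Ranger 3.1.0, Seurat 3.1.5 and GRCm38 were used. The authors deposited UMI counts of 30451 genes in 12186 barcodes, not normalized, with sums of 84263163 UMIs (wild type) and 67558106 UMIs (library labelled *Ddx5* knockout). Barcodes found in both libraries numbered 12, and 0 of them were neutrophil-like. Members and all 33 gene lists (469 symbols, 7 not in the table) were chosen with earlier results of these data known.

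UMIs were summed per class and library. Genes needed 20 UMIs, a denominator under 3 UMIs was raised to 3 for a higher call and a numerator for a lower call, and medians use log2 ratios with 10 CPM added. The floor was made specific to direction after the data were seen. Sums, ratios and shares have exact Poisson, conditional binomial and Clopper-Pearson 95% intervals. No p-value was computed, because cells are not replicates. Named genes were list genes, the 15 higher and 10 lower genes with ratio intervals farthest from 1 against either class (at least 50 UMIs, a UMI in 50% of cells of the higher class), and 5 in each direction between libraries. Clustering used 2000 variable genes, 15 principal components and Leiden at resolution 0.5. Scrublet called 4.50% and 4.87% of cells doublets, which were kept. Sequences and positions are RefSeq GRCm38.p6, and transcripts of the stefin interval GENCODE. Python 3.11.15, NumPy 2.4.6, SciPy 1.17.1 and scanpy 1.11.5 were used, and the ratio step was tested on simulated data.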

Additional observations from a re-analysis of the deposited data

Results flagged for a closer look

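The 149 barcodes with more than 10% mitochondrial UMIs were used in no comparison. In them *S100a8* and *S100a9* together stood at 633 CPM, against 2.36 CPM in other cells under that limit. Of their 504 UMIs of these genes 501 came from 1 barcode with 2987 UMIs, 1023 genes and 12.1% mitochondrial UMIs, which met the S100 limit of the neutrophil-like cells.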

How the results depend on the processing

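The ratio of shares between the libraries stayed above 1 in 12 alternatives that change which cells are counted, from 3.12 to 5.39, while a limit of 1 C1q UMI changed no cell. Counts of genes moved more. Genes lower than in other cells (20) numbered 12 with a 5% mitochondrial limit, 7 with 1000 genes required, 2 with 2000 genes required, 41 without called doublets, 10 and 34 with CPM outside *S100a8* and *S100a9* or outside ribosomal protein genes, 318 with means of per-cell CPM, 50 after thinning, 163 in cells under 2000 genes and 11 with membership by cluster. Genes higher than in macrophages (197) numbered 105 with 2000 genes required, 124 with a filter of 50 UMIs, 308 with per-cell means and 67 after thinning, and genes lower (128) numbered 76 and 52 with 2000 genes required and after thinning. Genes higher than in other cells (701) numbered 375 with 2000 genes required. Between libraries, 2-fold lower genes (265) numbered 140 with 2000 genes required, 67 and 1434 with filters of 50 UMIs and 1 UMI and 527 with per-cell means, and 2-fold higher genes (244) numbered 64 with the filter of 50 and 80 in cells under 2000 genes. The median log2 ratio (-0.073) was 0.069 with 2000 genes required, 0.11 with the filter of 1 UMI and -0.28 in cells under 2000 genes. With 2000 genes required, which left 5 and 14 cells, the log2 ratio between libraries changed sign for 10 of 15 genes. These were *Ngp* (-3.75), *Camp* (-3.72), *Ltf* (-3.49), *Lcn2* (-2.33), *Stfa1* (-1.20), *Cstdc5* (-1.16), *Cxcr2* (-0.41), *Retnlg* (-0.20), *Csf3r* (0.085) and *Cxcl2* (0.53). Without 1 wild-type cell that held nearly all granule UMIs of its library, the values of *Ngp*, *Camp*, *Ltf* and *Lcn2* were 5.90, 7.91, 6.80 and 3.60. Of 17 settings 4 could not move these values. In the other 13, of 195 values 142 moved by less than their counting interval, 50 by more, and 3 called values turned. The limits to cells under 2000 genes, to few monocyte markers and to the cluster, and the omission of that cell, were chosen after seeing the data. No paired analysis was possible because barcodes carry no library number, and for the same reason no replicate could be left out. Depth limits what can be said of wild type: 22 cells under 2000 genes hold 45895 UMIs, of which 3 UMIs are 65.4 CPM.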
